A study of Arabidopsis thaliana with 14 samples.

Results

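SBPASE, PRK and RCA are 3 genes of Arabidopsis thaliana whose proteins serve carbon fixation in the chloroplast. They were followed through the probe sets annotated to exactly 1 of them, where a probe set is the group of short array probes that together measure a transcript. Each gene had 1 such probe set: 251762_at for SBPASE (AT3G55800, chromosome 3), 255720_at for PRK (AT1G32060, chromosome 1) and 245061_at for RCA (AT2G39730, chromosome 2). No probe set was annotated to any of them together with another gene. They are 3 of the 13356 genes that had a probe set with 1 annotated gene. RefSeq lists 1 transcript each for SBPASE and PRK and 3 for RCA, whose transcripts were not measured apart.

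In the Calvin-Benson cycle, Rubisco joins carbon dioxide to the sugar phosphate ribulose bisphosphate, and the rest of the cycle reduces the product and rebuilds the acceptor. SBPASE encodes sedoheptulose bisphosphatase, which removes a phosphate from a sugar bisphosphate in the rebuilding steps, and PRK encodes phosphoribulokinase, which makes ribulose bisphosphate with ATP. RCA encodes Rubisco activase, which uses ATP to free Rubisco's active sites from bound sugar phosphates. In light, sedoheptulose bisphosphatase and phosphoribulokinase are switched on when thioredoxins reduce them, and in the dark the small protein CP12 holds phosphoribulokinase in an inactive complex.

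RNA was measured in whole rosettes of wild-type Columbia-0 plants, 5 to 6 weeks old and still vegetative, which had spent their last 11 days of growth under 14 h of light a day. The night was then prolonged, with samples taken 2 h ahead of its normal end, at that end, and 2, 4, 6, 8, 24 and 48 h into the extra darkness. Each sample combined 3 rosettes. The end of the night had 3 arrays (A, B and C), 4 h and 8 h had A and B, 24 h and 48 h had B and C, and the remaining 3 time points had 1 array each, which makes 14 arrays. All plants shared the genotype, and the end of the night served as the control for all times, so that comparisons with it share those 3 arrays. No array was taken in the light at a matching clock time. Of the times in extra darkness, only 24 h and 48 h fell at the control's clock time. At 2, 4, 6 and 8 h, longer darkness and time of day therefore cannot be told apart. The labels do not say what a letter stands for or whether lettered samples came from separate plantings, so the p-values measure the spread between these samples, which may be technical. In whole rosettes, fewer cells of a type and less RNA per cell cannot be told apart.

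Values are log2 signals after robust multi-array averaging (RMA) by the authors, so a difference of 1 is a 2-fold difference. Array medians lay between 6.62 and 6.77, and the correlation between replicate arrays over all probe sets ranged between 0.975 at 48 h and 0.993 at 4 h. The 48 h B array, which had the lowest median, stood apart from the other 13. Its 25S ribosomal RNA control read 8.98, against 11.05 to 13.78 on the others, and its 3′ minus 5′ signal was 2.02 for 1 of 2 actin probe groups (0.90 to 1.70 on the others) and 1.08 for 1 of 2 ubiquitin groups (0.62 to 0.99 on the others). The second actin group, the second ubiquitin group and both GAPDH groups lay within the range of the other arrays. The 48 h values of the members and of the listed pathway genes are therefore also given for each 48 h array. The rosette label could be checked with little: of 19 marker genes of leaf mesophyll, phloem, epidermis and guard cells, root and flower, 1 had a probe set with 1 annotated gene. This was PYK10, a beta-glucosidase gene known for its expression in roots, which ranged between 7.65 and 9.47 with a median of 8.96 and read 9.21 on 48 h B and 9.06 on 48 h C. It passed no test against the end of the night, and its part in the results was not tested.

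SBPASE was the member that fell furthest and the first to pass the test. Its signal was 12.75 at 2 h before night's end, 12.66, 12.74 and 12.85 at the end of the night, 12.55 at 2 h, 12.22 and 12.41 at 4 h, 12.02 at 6 h, 11.63 and 11.54 at 8 h, 9.85 and 10.19 at 24 h, and 8.47 and 8.45 at 48 h. Every array taken at 2 h or later lay below all 4 night arrays, and no array of a later time point lay above one of an earlier time point from 2 h on. On the linear scale the 24 h arrays held 13.4% and 17.0% of the mean end-of-night signal and the 48 h arrays 5.15% and 5.07%. The replicate arrays of SBPASE differed by 0.34 log2 units at 24 h and by 0.02 at 48 h.

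**Figure D1:**
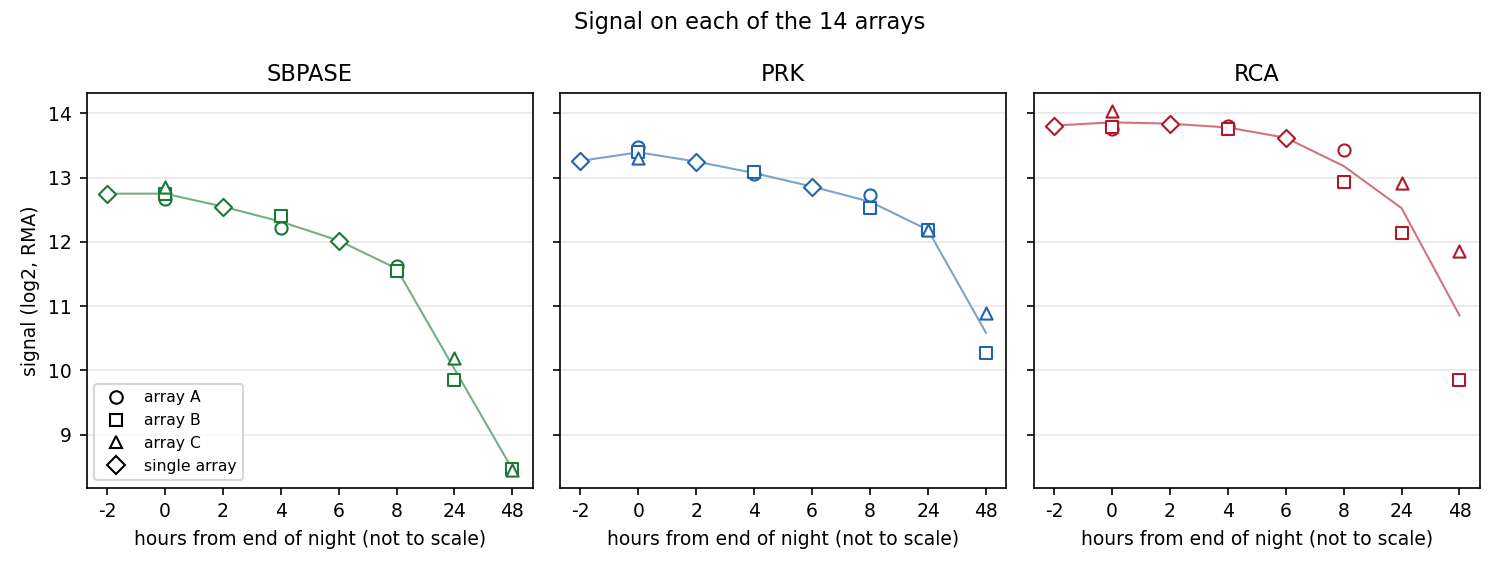
Log2 signal (RMA) of SBPASE, PRK and RCA on each of the 14 arrays, by hours from the end of the night (time axis not to scale). Symbols mark the replicate letter, with diamonds for time points of 1 array, and lines join the means; SBPASE reaches 8.47 and 8.45 on the 48 h arrays, while the 48 h arrays of RCA read 9.85 (B) and 11.86 (C).

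Changes were tested with limma, a linear model fitted to all 22746 probe sets that are not controls, with Benjamini-Hochberg adjustment over them and a threshold of 0.05 for the adjusted p. SBPASE did not pass at 2 h before night's end (change -0.01 ± 0.16, SE, adjusted p = 0.998) or at 2 h (-0.20 ± 0.16, adjusted p = 0.942). It was 1.35-fold lower at 4 h than at the end of the night (-0.44 ± 0.13, adjusted p = 0.0466), a call that was lost when any 1 of the 5 arrays compared was left out. SBPASE was 1.66-fold lower at 6 h (-0.73 ± 0.16, adjusted p = 0.0129). That call rests on 1 array, which borrows the spread of the other time points and could not itself be left out. At 8 h SBPASE was 2.24-fold lower (-1.17 ± 0.13, adjusted p = 0.000143). It was 6.63-fold lower at 24 h (-2.73 ± 0.13, adjusted p = 9e-07) and 19.6-fold lower at 48 h (-4.29 ± 0.13, adjusted p = 5.08e-08). Counted from the strongest fall, SBPASE ranked 160 of 22746 probe sets at 24 h and 48 at 48 h.

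Between successive replicated times SBPASE fell each time. The change was -0.73 ± 0.14 for 8 h against 4 h (adjusted p = 0.0226), -1.56 ± 0.14 for 24 h against 8 h (adjusted p = 0.000717) and -1.56 ± 0.14 for 48 h against 24 h (adjusted p = 0.000737) by limma. The call for 8 h against 4 h was lost when any 1 of the 4 arrays was left out. Per hour the mean signal changed by -0.146 log2 units between the end of the night and 8 h, by -0.098 between 8 h and 24 h and by -0.065 between 24 h and 48 h. At 24 h SBPASE had covered 63.6% of its 48 h fall, a share that was 63.8% with 48 h B alone and 63.5% with 48 h C alone.

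PRK, the kinase that makes the acceptor, fell less than SBPASE and passed from 8 h on. It read 13.26 at 2 h before night's end, 13.47, 13.40 and 13.31 at the end of the night, 13.25 at 2 h, 13.05 and 13.09 at 4 h, 12.86 at 6 h, 12.73 and 12.52 at 8 h, 12.19 and 12.18 at 24 h, and 10.27 and 10.90 at 48 h. All arrays from 2 h on lay below the 3 end-of-night arrays, although the 2 h array was close to the array taken 2 h before night's end. The 24 h arrays held 43.6% and 43.2% of the mean end-of-night signal and the 48 h arrays 11.5% (B) and 17.8% (C).

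PRK was 1.7-fold lower at 8 h than at the end of the night (-0.76 ± 0.17, adjusted p = 0.00759), 2.31-fold lower at 24 h (-1.21 ± 0.17, adjusted p = 0.00045) and 6.98-fold lower at 48 h (-2.80 ± 0.17, adjusted p = 1.45e-06) by limma. The 8 h call was lost without 8 h array B (-0.66, adjusted p = 0.0673). The earlier values did not pass: they were -0.13 ± 0.21 at 2 h before night's end, -0.14 ± 0.21 at 2 h, -0.32 ± 0.17 at 4 h and -0.54 ± 0.21 at 6 h, with adjusted p-values of 0.998, 0.986, 0.272 and 0.125. PRK ranked 1406 of 22746 from the strongest fall at 24 h and 335 at 48 h. Its largest step came last: 48 h was 3.03-fold below 24 h (-1.60 ± 0.18, adjusted p = 0.00195), while the steps between 4 h and 8 h and between 8 h and 24 h were both -0.44 ± 0.18 and did not pass (adjusted p = 0.291 for each). Per hour the mean changed by -0.096 up to 8 h, by -0.028 between 8 h and 24 h and by -0.067 between 24 h and 48 h. PRK had covered 43.0% of its 48 h fall at 24 h, or 38.7% with 48 h B alone and 48.4% with 48 h C alone.

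RCA, the Rubisco activase gene, varied more between replicate arrays than the other members at 8, 24 and 48 h, and its fall passed the test at 48 h. It read 13.81 at 2 h before night's end, 13.76, 13.79 and 14.03 at the end of the night, 13.84 at 2 h, 13.81 and 13.75 at 4 h, 13.62 at 6 h, 13.43 and 12.93 at 8 h, 12.14 and 12.91 at 24 h, and 9.85 and 11.86 at 48 h. The 2 h array and 4 h array A lay within the range of the night arrays, 4 h array B lay just below it, and all arrays from 6 h on lay further below. The B array was the lower of the replicates at 4, 8, 24 and 48 h, by 0.07, 0.50, 0.78 and 2.01 log2 units. The night values of RCA lay near the top of the scale, where the brightest probe set of each array read between 14.15 and 14.39.

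The spread of RCA at 48 h enters its standard error at every time, since 1 fit covers all arrays. RCA was 8.03-fold lower at 48 h than at the end of the night (-3.0 ± 0.48, adjusted p = 0.000733) by limma. At 24 h it was 2.53-fold lower (-1.34 ± 0.48), which did not pass (adjusted p = 0.0608). The 24 h change passed without both 48 h arrays (-1.34, adjusted p = 0.00188) and with the replicate letter as a block (-1.40, adjusted p = 0.00693). It was -0.95 without 24 h B and -1.73 without 24 h C. At 2 h before night's end and at 2, 4, 6 and 8 h the changes were -0.05, -0.02, -0.08, -0.24 and -0.68, with adjusted p-values of 0.998, 1, 0.962, 0.864 and 0.376. Of these, the 4 h value was 0.20 with the replicate block (adjusted p = 0.746).

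No step between successive times passed for RCA in the shared fit: it was -0.60 ± 0.53 for 8 h against 4 h (adjusted p = 0.768), -0.66 ± 0.53 for 24 h against 8 h (adjusted p = 0.641) and -1.67 ± 0.53 for 48 h against 24 h (adjusted p = 0.122) by limma. The last step passed with the replicate block (-1.67, adjusted p = 0.0143) and without 48 h C (-2.67, adjusted p = 0.00292), and was -0.66 without 48 h B (adjusted p = 0.383). The share of the 48 h fall of RCA that had been covered at 24 h was 44.5%, but 33.4% with 48 h B alone and 66.9% with 48 h C alone. In order of mean change, the members ran SBPASE, PRK, RCA at 2, 4, 6 and 8 h, and SBPASE, RCA, PRK at 24 h and 48 h.

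**Figure D2:**
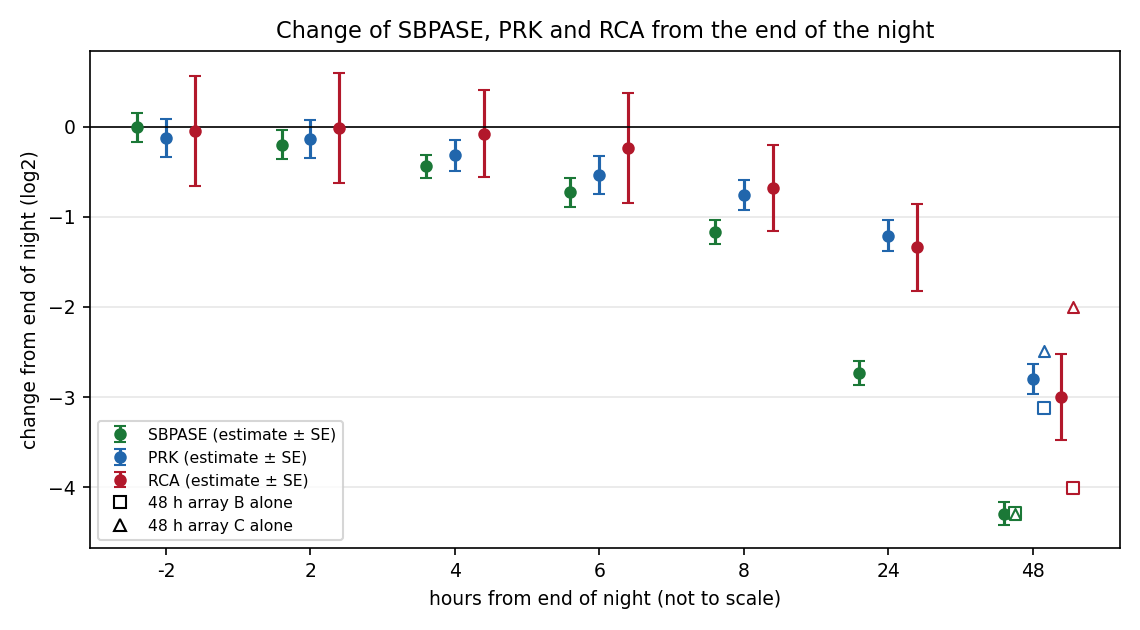
Change in log2 signal from the end of the night by time (hours, axis not to scale), as limma estimates ± SE from 1 fit of 14 arrays, with each 48 h array alone as an open symbol. At 48 h SBPASE stands at -4.29, PRK at -2.80 and RCA at -3.0, and the arrays of RCA lie at -4.01 (B) and -2.0 (C).

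The number of members called has to be read against all probe sets, of which 0.00879% were called lower at 2 h before night's end, 0.044% at 2 h, 8.78% at 4 h, 9.7% at 6 h, 15% at 8 h, 17.2% at 24 h and 20.3% at 48 h. The 4 h share rests on 1997 probe sets, a count that was 884 to 1589 when 1 of the 5 arrays compared was left out, and lowest without 4 h array A. Of the 3 members, none was called at the first of these times or at 2 h, SBPASE was called at 4 h and 6 h, SBPASE and PRK at 8 h and 24 h, and all 3 at 48 h. Between successive times, 2.18% of probe sets were called lower at 8 h than at 4 h, 1.89% at 24 h than at 8 h and 2.55% at 48 h than at 24 h, against SBPASE alone for the first 2 of these steps and SBPASE and PRK for the last. The median change over all probe sets was 0.02 at 24 h and 0.03 at 48 h. The members were bright at the end of the night, and bright probe sets were called lower more often. Of the 139 with an end-of-night mean of at least 12.75, members included, 11.5% were called lower at 4 h and 18% at 6 h. At 8, 24 and 48 h the share was 33.1%, 48.2% and 67.6%. Their median change was -0.42 at 24 h and -0.88 at 48 h.

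**Figure D3:**
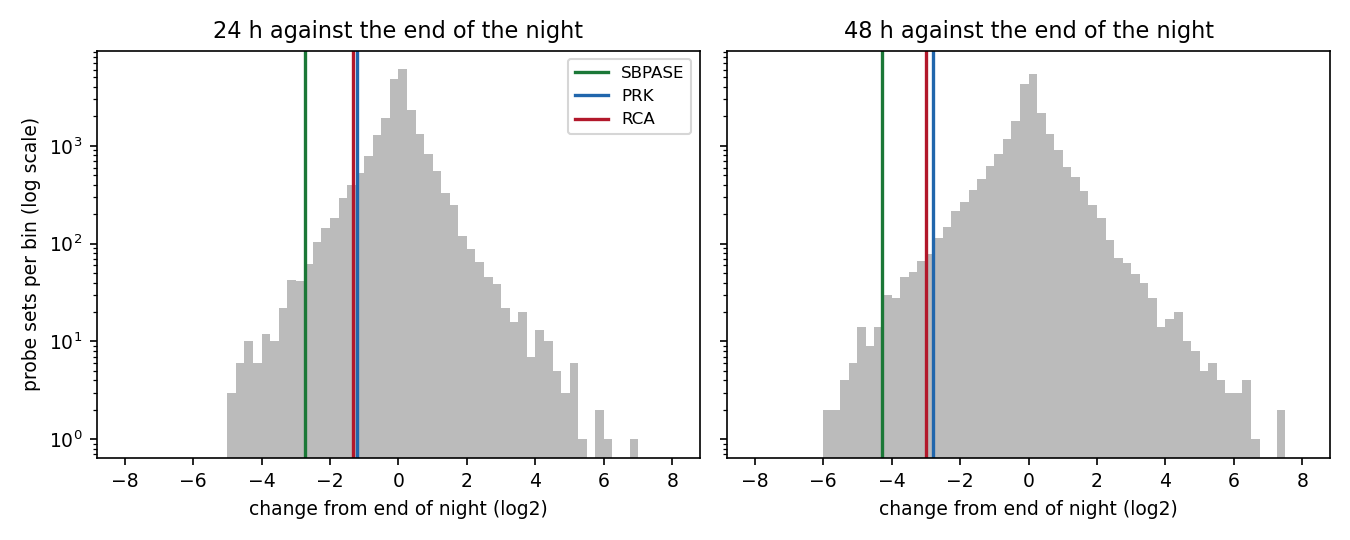
Distribution of the change in log2 signal from the end of the night over all 22746 probe sets at 24 h and 48 h (bins of 0.25, counts on a log scale), with vertical lines at SBPASE, PRK and RCA. SBPASE lies at -2.73 and -4.29 in the lower tail, and RCA and PRK lie close together at -1.34 and -1.21 at 24 h and at -3.0 and -2.80 at 48 h.

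A slope over hours, fitted to the 10 arrays between 2 h before and 8 h after the end of the night, used the time points of 1 array as well. A falling slope was called for all 3 members and for 19.7% of all probe sets. It was -0.127 ± 0.013 log2 units per hour for SBPASE (adjusted p = 3.44e-05), -0.0798 ± 0.012 for PRK (adjusted p = 0.000385) and -0.0646 ± 0.018 for RCA (adjusted p = 0.0162) by limma. For RCA the slope rested partly on 8 h array B, without which it was -0.0376 (adjusted p = 0.0472). Counted from the steepest fall, SBPASE ranked 1445 of 22746, PRK 2805 and RCA 3481.

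Whether members changed by different amounts was tested on the difference of their log2 signals within each array, which is not affected by a scale factor common to an array. The 4 arrays at 24 h and 48 h, and separately the 5 arrays at 4, 6 and 8 h, were set against the 4 night arrays (2 h before night's end and its end) by an exact two-sided permutation test, with Benjamini-Hochberg adjustment over 6 tests. SBPASE fell more than PRK at 24 h and 48 h, with changes of -3.51 and -1.97 log2 units, a difference of -1.54 (exact permutation p = 0.0286, the smallest this design allows, adjusted p = 0.0476). All 4 late arrays had a lower SBPASE minus PRK value, -2.45 to -1.80, than any night array, -0.81 to -0.46. SBPASE also fell more than RCA, with changes of -3.51 and -2.16, a difference of -1.35 (exact permutation p = 0.0286, adjusted p = 0.0476). The late arrays spanned -3.41 to -1.38 and the night arrays -1.18 to -1.04, a narrow gap. Relative to the night mean, SBPASE minus RCA at 48 h was -0.28 on B and -2.31 on C.

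At 4, 6 and 8 h SBPASE again fell more than each of the others. It changed by -0.79 and RCA by -0.34, a difference of -0.45 with no overlap between arrays (exact permutation p = 0.0159, the smallest possible, adjusted p = 0.0476). RCA lay near the top of the scale on these and the night arrays, where a fall can be understated, and the part of this in the difference was not tested. PRK too was bright on the night arrays, at 13.26 to 13.47 against 12.66 to 12.85 for SBPASE. The late differences use the same night arrays, so this limit applies to all 4 SBPASE differences. Against PRK, with a change of -0.51, the difference was -0.28, and 4 h array B overlapped the night arrays (exact permutation p = 0.0317, adjusted p = 0.0476). This exact permutation p, the largest of the 4, sets the adjusted p of all 4 SBPASE differences at 0.0476. The 4 calls therefore stand or fall together and are not separate results. PRK and RCA could not be told apart: their difference was -0.17 at 4 to 8 h (exact permutation p = 0.1746, adjusted p = 0.2095) and 0.19 at 24 h and 48 h (exact permutation p = 0.6, adjusted p = 0.6), where the late arrays spanned -0.96 to 0.42 and the night arrays -0.73 to -0.29. Without 48 h B the late differences were -1.65 for SBPASE minus PRK, -1.71 for SBPASE minus RCA and -0.06 for PRK minus RCA, and without 48 h C they were -1.43, -1.03 and 0.40. These tests exchange arrays freely between replicate letters. With arrays paired by letter and exchanged only within a letter, the late differences were -1.59 for SBPASE minus PRK and -1.34 for SBPASE minus RCA, and those at 4 and 8 h were -0.17 and -0.46. None of the 4 passed, with exact permutation p-values of 0.1111, 0.1111, 0.2222 and 0.1111, where 0.1111 is the smallest this design allows (adjusted p of 0.1667, 0.1667, 0.2667 and 0.1667). Paired in this way, PRK minus RCA was -0.29 at 4 and 8 h and 0.26 at 24 h and 48 h. Neither passed (exact permutation p = 0.1111 and 0.5556, adjusted p = 0.1667 and 0.5556). At 4 and 8 h PRK minus RCA was thus larger in size than SBPASE minus PRK, the reverse of the order without pairing. Leaving out 1 array raises the smallest p these tests allow. Whichever array was left out, both late SBPASE differences had an adjusted p above 0.05. Those at 4 to 8 h stayed under 0.05 only without 4 h array B. All 4 kept their sign.

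**Figure D4:**
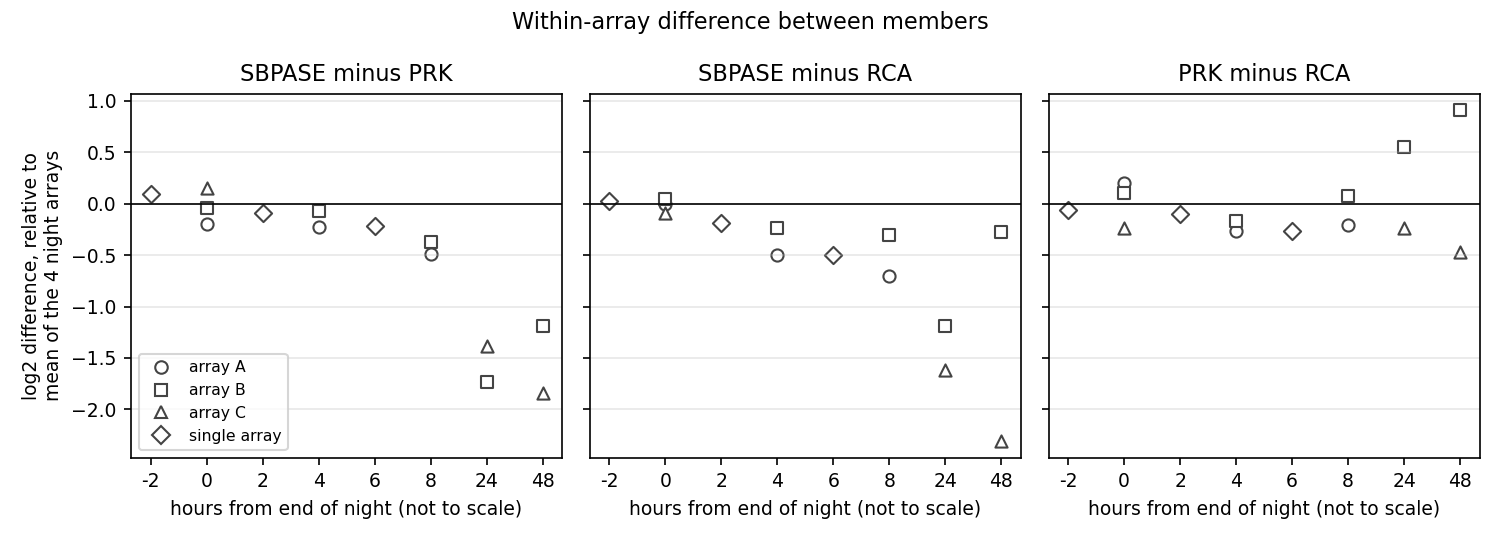
Difference in log2 signal between 2 members on each array, relative to the mean of the 4 night arrays, by hours from the end of the night (axis not to scale), with symbols by replicate letter. SBPASE minus PRK falls to -1.73 and -1.38 at 24 h, while PRK minus RCA at 48 h is 0.91 on array B and -0.47 on array C.

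At 48 h the arrays gave different pictures of RCA and nearly the same one of SBPASE. SBPASE was 19.4-fold below the end of the night on 48 h B and 19.7-fold on 48 h C. PRK was 8.69-fold below on B and 5.62-fold on C, changes of -3.12 and -2.49. RCA was 16.1-fold below on B and 4.0-fold on C, changes of -4.01 and -2.0. Fitted with 1 of the 48 h arrays left out, the fall of RCA passed both with C alone (adjusted p = 0.000693) and with B alone (adjusted p = 1.42e-05), as it did for SBPASE and PRK. B minus C was 0.02 for SBPASE, -0.63 for PRK and -2.01 for RCA, which placed RCA at rank 103 from the lowest of 22746 probe sets. The part of the quality values of 48 h B in this gap was not tested. The order of RCA and PRK at 48 h differed between the arrays, with RCA lower relative to its night level on B and PRK on C.

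Across arrays the members moved together. Pearson's r over the 14 arrays was 0.966 for PRK and SBPASE, 0.956 for PRK and RCA and 0.914 for RCA and SBPASE, and over the 12 arrays without 48 h it was 0.961, 0.899 and 0.94. All these points share the time course, so the values are descriptions. The genes most like SBPASE, among 13512 others with a probe set of 1 gene, were AT5G35170 (r = 0.996), NdhL (0.993), AT3G10060 (0.992), AT5G17670 (0.992) and TRXF2 (0.992), and without the 48 h arrays their r was 0.981 to 0.994. NdhL encodes a subunit of the chloroplast NADH dehydrogenase-like complex, and TRXF2 a thioredoxin of the f type, the type that reduces sedoheptulose bisphosphatase. Their changes at 48 h lay between -2.31 and -3.92. The 5 genes were chosen for their likeness to SBPASE over the same arrays, so a fall was given by the choice.

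The genes most like PRK were AT3G11630 (r = 0.983), AT4G24780 (0.980), AT2G35260 (0.976), ATPC1 (0.976) and AT5G45670 (0.974). ATPC1, which encodes the gamma subunit of the chloroplast ATP synthase, fell by 0.87 at 24 h and 1.59 at 48 h, with -1.64 on 48 h B and -1.55 on 48 h C. Here too a fall was given by the choice of genes. Without the 48 h arrays r was 0.971 for ATPC1, which then ranked 39, and 0.86 for AT5G45670, which ranked 768. AT3G11630, AT4G24780 and AT2G35260 then had r of 0.94, 0.91 and 0.943 and ranked 201, 408 and 183. Their places in the list of PRK thus also rested on the 48 h arrays. RCA was most like AT1G64510 (r = 0.975), AT3G11630 (0.972), AT1G29070 (0.969), psbC (0.964) and AT4G17390 (0.957).

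The likeness of psbC to RCA rested on the 48 h arrays. psbC, a chloroplast-encoded gene for an antenna protein of photosystem II, read 11.64 and 11.73 at 24 h and 9.08 and 11.05 at 48 h, against 12.63, 12.49 and 12.46 at the end of the night. It shared with RCA a far lower value on 48 h B than on 48 h C, a difference of -1.97 log2 units (B minus C). Without the 48 h arrays its r with RCA was 0.799 and its rank 524. The other 4 genes most like RCA had a B minus C difference of -0.95 to -0.52, and the 5 most like SBPASE one of -0.06 to 0.28. All these genes, psbC included, were chosen for their likeness over arrays that include 48 h B and C. A B minus C difference like that of their member was therefore favoured by the choice.

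Around the members, 4 lists of pathway genes were followed: other enzymes of the Calvin-Benson cycle, CP12 and redox regulators, factors of Rubisco assembly and repair, and photorespiration, which recycles the product of Rubisco's reaction with oxygen. Of 58 listed genes, 15 had a probe set with 1 annotated gene: 2 of 20, 4 of 13, 6 of 12 and 3 of 13 in that order. Genes for which the gene table gives no symbol are named by locus, and only their place in a list is stated. Of the 15, 8 were called lower than at the end of the night at 4 h, 9 at 6 h, 10 at 8 h, 12 at 24 h and 12 at 48 h, where 8.78%, 9.7%, 15%, 17.2% and 20.3% of all probe sets were. All 15 lay above the array medians at the end of the night, and bright probe sets were called lower more often. The share among probe sets as bright as the 15 was not computed. The 4 h count was 2 to 4 when any 1 of the 5 arrays compared was left out. Their median change was -0.52 at 4 h, -1.54 at 24 h and -2.09 at 48 h, where the median over all probe sets was -0.02, 0.02 and 0.03. With 48 h B left out 15 of the 15 were called lower at 48 h, and with 48 h C left out 11, without AT1G80380.

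All 6 measured genes of the Rubisco assembly and repair list were called lower at 8, 24 and 48 h, and 4 of them at 4 h. AT3G48420 of this list fell furthest of the 15. It read 6.59 and 7.32 at 24 h and 5.86 and 5.67 at 48 h, against 11.11, 11.19 and 11.36 at the end of the night, and every array from 2 h on lay below all night arrays. It was 19.2-fold lower at 24 h (-4.26 ± 0.20, adjusted p = 8.58e-07, limma) and 43.8-fold lower at 48 h (-5.45 ± 0.20, adjusted p = 9.42e-08, limma), at -5.36 on 48 h B and -5.55 on 48 h C. Its 48 h values lay below the array medians of 6.62 (B) and 6.66 (C), so the size of this fold is uncertain. Cpn60beta2, a subunit of the chaperonin that folds chloroplast proteins, read 7.39 and 6.55 at 24 h, against 10.12, 10.24 and 9.74 at the end of the night, a change of -3.06 ± 0.38, and its 48 h arrays were at -2.50 (B) and -3.52 (C). AT3G04550 had its lowest value early: its change was -1.25 at 4 h, -1.51 at 6 h, -0.78 at 8 h, -0.71 at 24 h and -1.07 at 48 h (-1.09 on B, -1.05 on C), all of them called. The remaining 3, AT5G28500, AT5G51110 and AT3G47650, fell by 0.84 to 1.59 at 24 h and by 1.22 to 2.21 at 48 h, with -2.53 to -1.54 on 48 h B and -2.12 to -0.90 on 48 h C.

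Of the redox regulators, 3 of 4 were called lower at 24 h and 48 h. NTRC, a thioredoxin reductase that draws on NADPH, read 8.49 and 8.13 at 24 h, against 10.54, 10.67 and 10.55 at the end of the night, and fell by 2.28 at 24 h and 2.36 at 48 h. At 48 h it was 3.92-fold lower on array B and 6.68-fold lower on array C. Its fall was already called at 4 h (-0.82 ± 0.21, adjusted p = 0.0256, limma). TRXF2 was at -0.16 at 4 h, which did not pass, and fell by 0.73 at 8 h, 1.65 at 24 h and 2.55 at 48 h (-2.47 on B, -2.64 on C). AT2G04700 fell by 1.06 at 24 h and 1.39 at 48 h (-1.11 on B, -1.67 on C). The m-type thioredoxin gene ATHM2 was called lower at 4 h (-0.52), but its changes of -0.34 at 24 h and -0.37 at 48 h did not pass (adjusted p = 0.0764 and 0.0501, limma). At 48 h ATHM2 was at -0.23 on B and -0.50 on C, and it passed with 48 h B left out (adjusted p = 0.0326, limma).

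**Figure D5:**
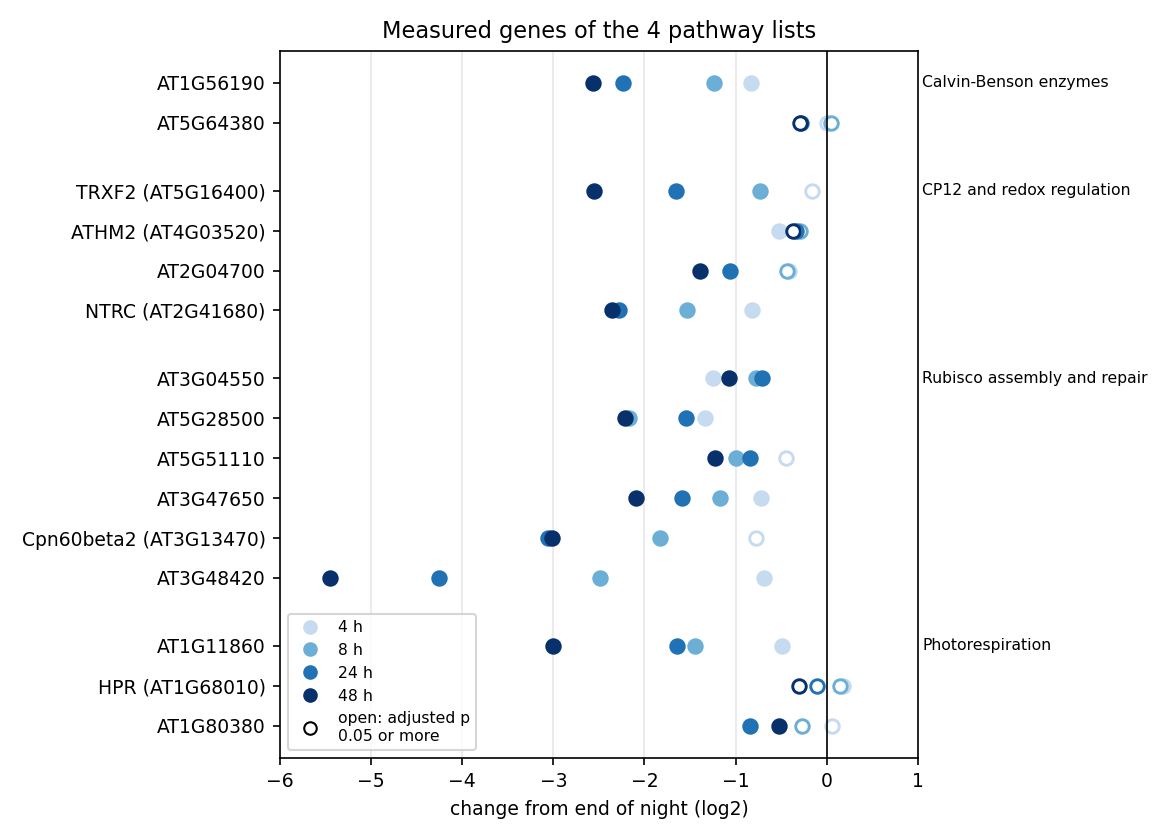
Change in log2 signal from the end of the night at 4, 8, 24 and 48 h for the 15 measured genes of the 4 pathway lists, with filled circles for an adjusted p under 0.05 and open circles otherwise. AT3G48420 lies farthest left at -4.26 (24 h) and -5.45 (48 h), while AT5G64380, ATHM2 and HPR lie between -0.52 and 0.18. Of these, ATHM2 at 4 h (-0.52) is filled.

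In both other lists some genes fell at 24 h and others did not pass. Of the 2 cycle enzymes measured, AT1G56190 read 9.40 and 8.82 at 24 h, against 11.41, 11.52 and 11.10 at the end of the night, and fell by 2.23 ± 0.20 at 24 h and 2.57 at 48 h (-2.37 on B, -2.77 on C). AT5G64380 was at -0.28 at 24 h and -0.29 at 48 h, which did not pass (adjusted p = 0.137 and 0.11, limma). Its 48 h arrays were at -0.09 (B) and -0.49 (C), and the 48 h change passed with 48 h B left out (adjusted p = 0.0153, limma). Of the 3 photorespiration genes, AT1G11860 read 10.95 and 11.01 at 24 h and 9.36 and 9.86 at 48 h, against 12.54, 12.66 and 12.65 at the end of the night, and fell by 1.64 and 3.0. It was at -3.26 on 48 h B and -2.75 on 48 h C. AT1G80380 fell by 0.84 at 24 h and 0.52 at 48 h, and the 48 h call was lost with 48 h C left out (-0.32, adjusted p = 0.146, limma), while 48 h C alone was at -0.73. HPR, the hydroxypyruvate reductase of the photorespiratory cycle, was at -0.11 at 24 h and -0.30 at 48 h (adjusted p = 0.593 and 0.0923, limma). Its 48 h arrays were at -0.14 (B) and -0.46 (C), and the 48 h change passed with 48 h B left out (adjusted p = 0.0313, limma).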

How the data were processed

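Values were log2 signals of the Affymetrix ATH1 array in the series table the authors deposited, made by RMA per the submitters' processing notes; its software version is not given in the sources used here. All 14 columns were matched to samples by title. RMA fits all arrays together, so an array of poor quality can affect the others, and differences near the top of the scale can be understated. The number of arrays limits the precision.

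Probe sets were named from the platform annotation, with symbols from the RefSeq gene table of TAIR10.1: of 22746 tested, 13513 had 1 gene, 503 several and 8730 none listed here. The files name no genome build, so no coordinates are given. The 64 control probe sets were left out.

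Time was a factor with 8 levels in 1 limma 3.58.1 fit (R 4.3.3; lmFit, eBayes, two-sided) of 14 arrays with no filter, leaving 6 residual degrees of freedom plus 3.25 from the prior; time points of 1 array borrow the spread of the others. Exact permutation tests used scipy 1.17.1 and figures matplotlib 3.10.9.

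The genes named were the members, every measured gene of the pathway lists (for several probe sets, the brightest by mean) and the 5 genes most correlated with each member. Members, lists and tests were chosen with earlier results of these data known.

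Deviations from the time point means correlated between arrays of 1 letter in 16 of 16 pairs, at 0.17 to 0.58, all over 0.1, so letters were taken to pair samples, from the data only. Alternatives were a replicate block, median centring, a second quantile normalization, leaving out the 33.3% of probe sets with the lowest mean signal (dim probe sets), trend and robust variances, an adjusted p under 0.01, fewer samples and leaving out each array.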

Additional observations from a re-analysis of the deposited data

How the results depend on the processing

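Calls of RCA and early calls of SBPASE moved with the settings, and the cause was not tested. SBPASE at 4 h was -0.415 with median centring (adjusted p = 0.0573) and -0.437 without the dim probe sets, with trend and robust variances, at an adjusted p under 0.01 and without both 48 h arrays (adjusted p of 0.0542, 0.0591, 0.0466 and 0.0506), none of which passed. At an adjusted p under 0.01, SBPASE at 6 h (-0.728) and at 8 h against 4 h (-0.73) no longer passed either. Without both 48 h arrays PRK at 6 h (-0.535, adjusted p = 0.0217) and RCA at 24 h (-1.34, adjusted p = 0.00188) passed. With only the time points compared in the fit, RCA passed at 8 h (-0.677, adjusted p = 0.0342) and 24 h (-1.34, adjusted p = 0.00528), while SBPASE at 8 h against 4 h (-0.73, adjusted p = 0.0556) and SBPASE and PRK at 48 h against 24 h (-1.56 and -1.60, adjusted p = 0.0785 and 0.101) did not. Without the dim probe sets RCA passed at 24 h (-1.34, adjusted p = 0.0344).

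With the replicate block, paired by letter, RCA passed at 24 h (-1.40, adjusted p = 0.00693) and at 48 h against 24 h (-1.67, adjusted p = 0.0143), and its 4 h change turned to 0.201 (adjusted p = 0.746); the block changed no other call of a member. Paired within letters, a setting chosen after seeing the data, SBPASE minus PRK was -1.591 at 24 h and 48 h and -0.168 at 4 and 8 h, and SBPASE minus RCA -1.335 and -0.46, with adjusted p of 0.1667, 0.2667, 0.1667 and 0.1667 and no smaller p than 0.1111 possible. The count of all probe sets called lower at 4 h was 3238 with the block, against 1997 without it, 1015 at an adjusted p under 0.01 and 884 to 1589 without 1 array. At 8, 24 and 48 h it was 4430, 4884 and 5522 with the block, against 3417, 3902 and 4623.

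Leaving out 1 array at a time gave -0.102 to 0.0344 for RCA and -0.0522 to 0.0437 for SBPASE at 2 h before night's end, and -0.0734 to 0.0634 for RCA at 2 h and -0.13 to 0.00636 at 4 h, each turning positive without end-of-night C. It gave -0.535 to -0.338 for SBPASE at 4 h, -0.872 to -0.657 for PRK at 8 h, -0.828 to -0.632 for SBPASE at 8 h against 4 h and -2.67 to -0.663 for RCA at 48 h against 24 h. For 24 h and 48 h it gave -1.65 to -1.434 for SBPASE minus PRK, -1.706 to -1.03 for SBPASE minus RCA and -0.056 to 0.404 for PRK minus RCA, negative without 48 h B. For 4 to 8 h it gave -0.344 to -0.223 for SBPASE minus PRK and -0.5 to -0.383 for SBPASE minus RCA. Without the array 2 h before night's end the 4 SBPASE differences were -1.506 and -1.339 (24 h and 48 h) and -0.246 and -0.436 (4 to 8 h), each with an adjusted p of 0.1071, and without both 48 h arrays the first 2 were -1.555 and -1.404 (adjusted p = 0.2); fewer arrays raise the smallest p allowed. The count of listed pathway genes called lower at 4 h, 8 of 15, was 2 at an adjusted p under 0.01 and 2 to 4 without 1 array.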
